A study of Homo sapiens with 4 samples.

Results

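The thioredoxin system passes electrons from NADPH through a thioredoxin reductase to thioredoxin, and from there to proteins with oxidized cysteines, among them the peroxiredoxins, which remove hydrogen peroxide. Cytosol and mitochondria hold largely separate sets of these enzymes, mostly encoded by different genes. The reductases are selenoproteins, and *TXNRD1*, the cytosolic reductase, is named in the study as a protein that chaetocin inhibits. The study also reports, by qPCR and at a dose above the one sequenced, that chaetocin raised *TXNRD1* RNA. A list of 10 genes of the system was examined in the count tables, and 9 of them were found by symbol among the 57905 genes listed. These were the thioredoxins *TXN* and *TXN2*, the reductases *TXNRD1*, *TXNRD2* and *TXNRD3*, the peroxiredoxins *PRDX1*, *PRDX3* and *PRDX5*, and *SRXN1*, sulfiredoxin, which repairs over-oxidized peroxiredoxins. The tenth, *TXNIP*, was not analysed here, because no identifier of the tables was paired with that symbol in the annotation used. All 9 genes passed the filter on low counts.

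The samples were U87MG cells, an established human glioblastoma line grown in culture and labelled wild type. One group of 2 samples was left untreated, and the other group of 2 was treated with 50 nM chaetocin, a fungal metabolite dissolved in DMSO, for 24 h. The control cells did not receive DMSO according to the labels, so chaetocin and its solvent cannot be told apart. The labels do not say that the samples came from separate cultures, and p-values then measure the spread between these samples, which may be technical.

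Totals ranged from 21241984 to 32590479 counts per sample, where 3 counts correspond to between 0.0844 and 0.138 CPM (a gene's counts scaled to the size of the library, with TMM factors), a floor that covers counting error only. Of 9 glial and glioma markers, *VIM*, *CD44*, *SLC1A3* and *NES* were at or above 20.9 CPM in each sample, *SLC1A3* was called lower with chaetocin (log2 fold change -1.22, adjusted p = 0.0266), *GFAP* and *OLIG2* were between 0.46 and 2.58 CPM, *S100B* and *SOX2* had at most 5 counts, and *AQP4* had 0 counts. The summed level of this list was 4843 and 5551 CPM in the control samples and 1993 and 3246 CPM with chaetocin. Of 7 leukocyte markers, 3 had 0 counts throughout, and *PTPRC* and *ITGAM* were called higher with chaetocin at levels no higher than 1.10 CPM. The 7 summed to between 22.4 and 27.5 CPM in control cells and between 17.9 and 35.0 CPM with chaetocin, the larger part of it *CSF1R*. The 3 epithelial markers summed to 0.942 and 0.974 CPM in control cells and to 1.75 and 2.53 CPM with chaetocin, and the 2 endothelial markers found to 0.860 and 1.29 CPM and to 2.11 and 3.15 CPM. Both sums were higher in both treated samples, and none of these markers was called. The part of these markers in the results was not tested.

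The coding sequences at the catalytic sites are shown to set the cytosolic and mitochondrial members side by side. They were read from the GENCODE v29 transcripts (GRCh38), in windows of 30 bases, 5′ to 3′ on the coding strand. In the thioredoxins the capitals mark the codons for the active site, a cysteine, a glycine, a proline and a second cysteine.
TXN, chr9:110251373-110251402, minus strand: gccacgtggTGTGGGCCTTGCaaaatgatc
TXN2, chr22:36476832-36480579, minus strand, over an exon junction: gcacagtggTGTGGACCCTGCaagatcctg
In the peroxiredoxins the capitals mark the codons around the cysteine that attacks the peroxide.
PRDX1, chr1:45515743-45515772, minus strand: ttcaccTTTGTGTGCCCCACGGAGatcatt
PRDX3, chr10:119173845-119174452, minus strand, over an exon junction: ttcaccTTTGTGTGTCCTACAGAAattgtt
In the reductases the capitals mark the TGA codon read as selenocysteine, the last codon but one of each coding sequence.
TXNRD1, chr12:104348389-104348418, plus strand: gcaagcatcctccaggctggctgcTGAggt
TXNRD2, chr22:19877108-19877137, minus strand: ctggaccccacggtgacaggctgcTGAggg
TXNRD3, chr3:126607908-126607937, minus strand: ctagacatcactcagaaaggctgcTGAggc
Over the 30 bases, 21 were identical between *TXN* and *TXN2*, 24 between *PRDX1* and *PRDX3*, 15 between *TXNRD1* and *TXNRD2*, and 19 between *TXNRD1* and *TXNRD3*, so in this window *TXNRD1* was closer to *TXNRD3* than to *TXNRD2*.

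Chaetocin-treated cells had 3.12 times as much *TXNRD1* RNA as untreated cells, and *TXNRD1* was the 1 gene of the 9 that passed the test. Of all 16416 genes tested with edgeR's quasi-likelihood model, 1.11% were called higher, 0.743% lower and 1.85% in either direction, a call being a Benjamini-Hochberg adjusted p below 0.05. None of the 9 was called lower. The cytosolic genes *SRXN1* and *TXN* followed with estimated folds of 2.54 and 1.49, and their adjusted p-values were 0.0552 and 0.0826. At an unadjusted p under 0.05, 3 of the 9 genes were higher and 0 were lower, against 10.9% and 9.43% of all tested genes. With DESeq2's Wald test, *TXNRD1*, *SRXN1* and *TXN* were called higher and 0 of the 9 lower, where that tool called 2.72% of all tested genes higher and 2.81% lower. The median log2 fold change was 0.11 over the 9 genes and 0.01 over all tested genes.

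**Figure D1:**
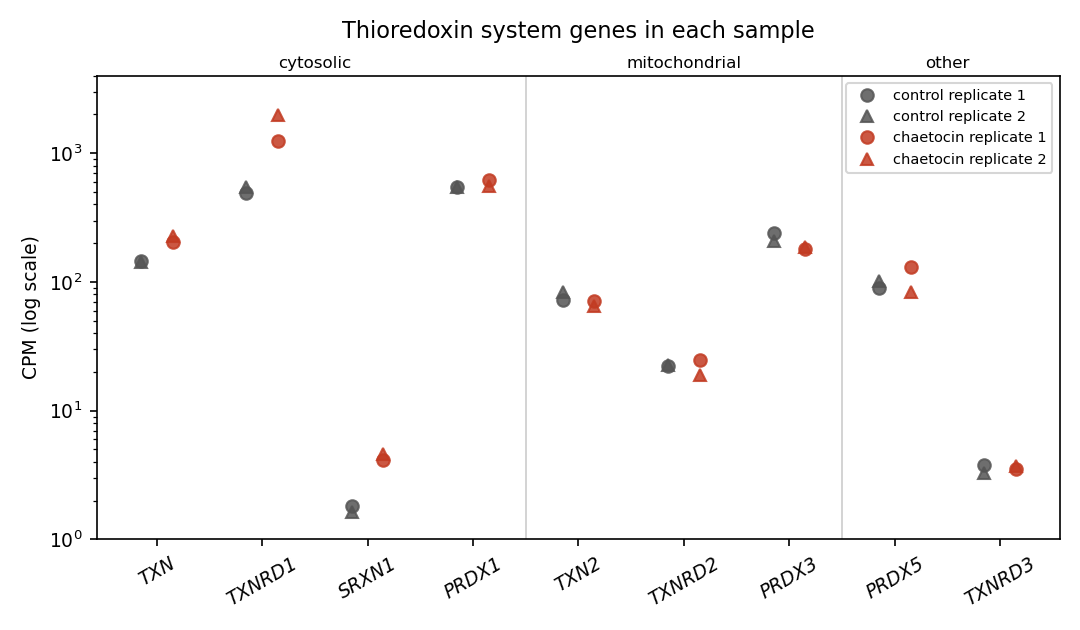
CPM of each gene on a log scale, with 1 symbol per sample, grey for control and red for chaetocin. *TXNRD1* in the chaetocin samples, at 1253 and 1979 CPM, lies above both control samples at 489 and 546 CPM. The symbols of the mitochondrial genes lie close together, as do those of *PRDX1* and *TXNRD3*.

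*TXNRD1* (ENSG00000198431, chromosome 12, from 104215779 to 104350305 on GRCh38) reduces cytosolic thioredoxin. Untreated cells gave 11925 and 15690 counts for it, and treated cells gave 27268 and 70300. On the CPM scale the levels were 489 and 546 in control cells and 1253 and 1979 with chaetocin, so both treated samples lay above both controls and also differed from each other. The log2 fold change was 1.64 (standard error 0.25, 95% interval from 1.07 to 2.21, adjusted p = 0.0306). Against the control mean, the log2 difference was 1.28 in chaetocin replicate 1 and 1.94 in chaetocin replicate 2. By mean CPM, *TXNRD1* was number 260 among the tested genes in control cells and number 27 with chaetocin.

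*TXNRD2* (ENSG00000184470, chromosome 22, from 19875517 to 19941992), the mitochondrial reductase, was at 22.3 and 22.4 CPM in the control samples and at 25.0 and 18.9 CPM with chaetocin. The treated samples lay on either side of the controls. Its log2 fold change was -0.03 (95% interval from -0.46 to 0.40, adjusted p = 0.947), which leaves room for a fold between 0.728 and 1.32. *TXNRD3* (ENSG00000197763, chromosome 3, from 126571779 to 126655155) encodes a reductase with an added glutaredoxin domain, known chiefly from testis. It had 93 and 94 counts in the control samples and 77 and 131 counts with chaetocin, or 3.81, 3.27, 3.54 and 3.69 CPM in the same order. The groups overlapped, and the log2 fold change was 0.03 (95% interval from -0.58 to 0.64, adjusted p = 0.962). Per kilobase of exon, *TXNRD1* made up 95.2% and 95.8% of the summed RNA of the 3 reductases in untreated cells and 98.0% and 98.9% with chaetocin.

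*TXN* (ENSG00000136810, chromosome 9, from 110243811 to 110256640) encodes cytosolic thioredoxin, the substrate of the *TXNRD1* enzyme. Its level was 145 and 144 CPM in the control samples and 204 and 228 CPM in the chaetocin samples. The control samples were nearly equal, and both treated samples were higher. The log2 fold change was 0.58 (standard error 0.15, 95% interval from 0.24 to 0.92), and the adjusted p of 0.0826 missed the threshold. In 5 of 11 alternative analyses, DESeq2's Wald test included (adjusted p = 0.0379), it fell under the threshold, and over all 11 it ranged from 0.00270 to 0.512. *TXN2* (ENSG00000100348, chromosome 22, from 36467036 to 36482030), the mitochondrial thioredoxin, was at 72.4 and 83.5 CPM in control cells and at 70.9 and 64.9 CPM with chaetocin. Both treated samples were below both controls by a small margin. Its log2 fold change of -0.20 did not pass the test (95% interval from -0.54 to 0.14, adjusted p = 0.493).

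*PRDX1* (ENSG00000117450, chromosome 1, from 45511036 to 45523047), an abundant cytosolic peroxiredoxin, was at 549 and 544 CPM in the control samples and at 623 and 559 CPM with chaetocin. The log2 fold change was 0.11 (95% interval from -0.27 to 0.50, adjusted p = 0.754), and a fold above 1.41 lies outside its interval. Exons of *MMACHC* on the opposite strand cover 24.9% of the exon length of *PRDX1*, with 289 to 597 counts on *MMACHC* itself, and how reads there were assigned was not given in the sources used here. *PRDX3* (ENSG00000165672, chromosome 10, from 119167703 to 119178833), a peroxiredoxin of the mitochondrial matrix, was at 242 and 209 CPM in control cells and at 180 and 187 CPM with chaetocin. Both treated samples were lower than both controls, and the log2 fold change was -0.29 (95% interval from -0.65 to 0.06, adjusted p = 0.325). *PRDX5* (ENSG00000126432, chromosome 11, from 64318088 to 64321811), which is found in mitochondria, peroxisomes and cytosol, was at 90.3 and 101 CPM in the control samples and at 130 and 84.0 CPM with chaetocin. The treated samples lay above and below the controls. The log2 fold change of *PRDX5* was 0.16 (adjusted p = 0.722) and -0.19 without chaetocin replicate 1.

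*SRXN1* (ENSG00000271303, chromosome 20, from 646615 to 653370) had 44 and 47 counts in the control samples and 90 and 163 counts in the chaetocin samples. These are 1.80 and 1.64 CPM in control cells and 4.14 and 4.59 CPM with chaetocin, and the groups were well apart relative to the spread within each. The log2 fold change was 1.35 (standard error 0.28, 95% interval from 0.69 to 2.00), with an adjusted p of 0.0552, just above the threshold. It was under the threshold in 5 of 11 alternative analyses, in DESeq2's Wald test with 0.0215, and ranged from 0.00352 to 0.196 over them. In GENCODE v29, exons of the gene *AL121758.1* on the same strand cover 2292 of the 2698 exon bases of *SRXN1*, and that gene had at most 5 counts in any sample. How reads in the shared bases were treated is not given in the sources used here, and the level of *SRXN1* is therefore uncertain.

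**Figure D2:**
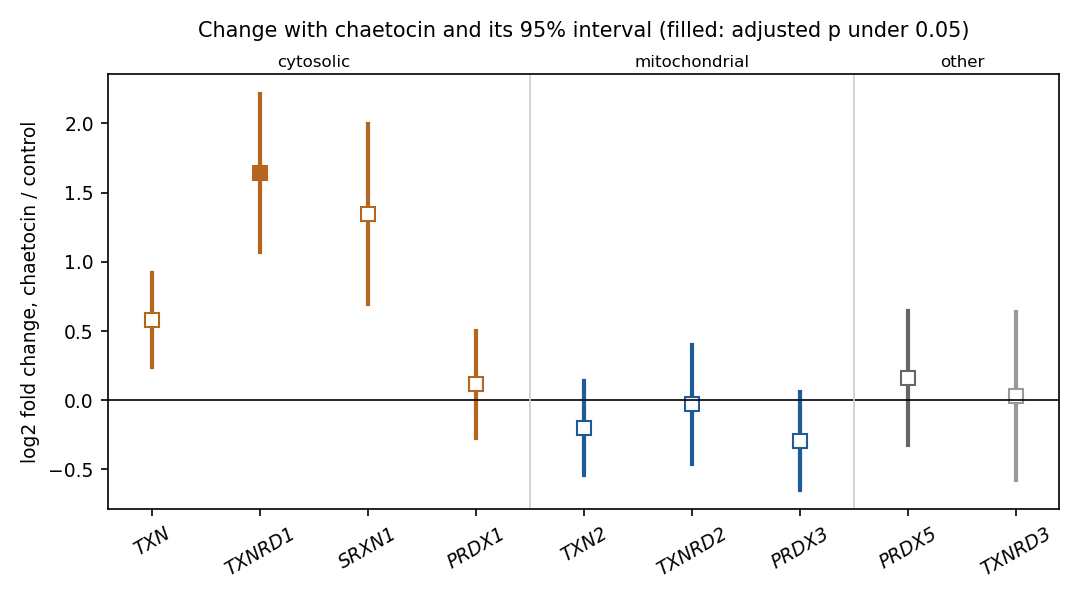
Log2 fold change of each gene between chaetocin and control with its 95% interval, unadjusted for the number of genes, in the order cytosolic, mitochondrial and other. The filled square marks *TXNRD1*, with an interval from 1.07 to 2.21. The intervals of all 3 mitochondrial genes include 0, as do those of *PRDX1*, *PRDX5* and *TXNRD3*.

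Set against their location in the cell, all 4 genes of cytosolic proteins (*TXN*, *TXNRD1*, *SRXN1* and *PRDX1*) had both chaetocin samples above both control samples, with log2 fold changes from 0.11 to 1.64 and a median of 0.96. For comparison, 26.8% of all tested genes had both chaetocin samples above both controls, and 26% had both below. The 3 genes of mitochondrial proteins (*TXN2*, *TXNRD2* and *PRDX3*) had log2 fold changes from -0.29 to -0.03, and in 2 of them both chaetocin samples were below both controls. Without chaetocin replicate 2, the log2 fold change of *TXNRD2* was 0.15. In bulk RNA, more RNA per cell and more cells making it cannot be told apart.

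*TXNRD1*, *TXN* and *PRDX1* were then each compared with a mitochondrial counterpart inside every sample (*SRXN1* has none on the list), so that the scaling of the libraries cancelled. *TXNRD1* was counted 21.9 and 24.3 times as often as *TXNRD2* without treatment, and 50.2 and 104 times as often after it. *TXN* was counted 2.01 and 1.72 times as often as *TXN2* in control cells and 2.88 and 3.51 times as often with chaetocin. For *PRDX1* against *PRDX3*, the ratio was 2.27 and 2.60 in control cells and 3.45 and 2.99 with chaetocin. For all 3 pairs, both treated samples had a higher ratio than either control. For *TXN* over *TXN2* and *PRDX1* over *PRDX3* this follows from the order of the single genes. There the cytosolic gene was higher, and the mitochondrial gene lower, in both treated samples. The share of all gene pairs with such an order was not computed. The mean log2 ratio was higher with chaetocin by 1.65 for *TXNRD1* over *TXNRD2*, by 0.77 for *TXN* over *TXN2* and by 0.40 for *PRDX1* over *PRDX3*. In an exact permutation test over the samples (two-sided), p was 0.333 for each of the 3 pairs, also after Benjamini-Hochberg adjustment, and this is the smallest value that 2 samples against 2 allow.

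**Figure D3:**
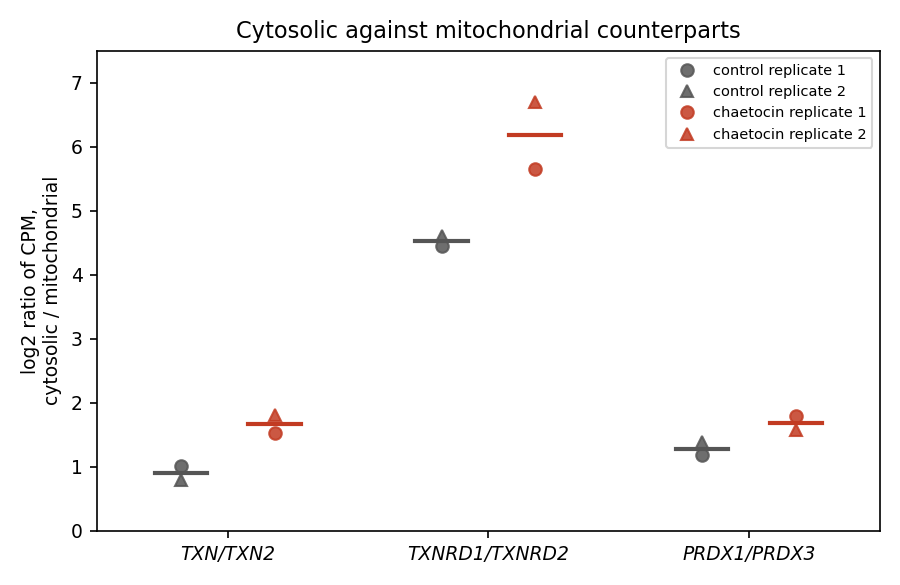
Log2 ratio of CPM between 3 cytosolic genes and their mitochondrial counterparts, with 1 symbol per sample and a bar at the group mean. In all 3 pairs the red symbols (chaetocin) lie above the grey ones (control). The share of all gene pairs with such an order was not computed. The mean for *TXNRD1* over *TXNRD2* moves from 4.53 to 6.18.

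Expressed per kilobase of exon (RPKM), which allows genes to be compared with each other, *PRDX1* had the highest level of the 9 in control cells, at 359 ± 2.45 RPKM (SD, n = 2). It was followed by *TXN* at 127 ± 0.87, *PRDX5* at 107 ± 8.71, *TXNRD1* at 77.1 ± 6.05, *PRDX3* at 66.0 ± 6.81 and *TXN2* at 38.0 ± 3.81 RPKM. Far below came *TXNRD2* at 2.67 ± 0.013, *TXNRD3* at 0.93 ± 0.10 and *SRXN1* at 0.64 ± 0.044 RPKM. No neighbours in this order had overlapping samples. With chaetocin, *TXNRD1* stood second at 241 ± 76.5 RPKM behind *PRDX1* at 388 ± 29.5 RPKM, and its samples, at 187 and 295 RPKM, overlapped those of *TXN*, at 179 and 200 RPKM. *SRXN1* then lay above *TXNRD3*, with 1.62 ± 0.12 against 0.95 ± 0.028 RPKM. If all reads in the shared exon bases of *SRXN1* were dropped in counting, which is not known, its counts would belong to the other 406 bases, and its level would be 4.23 ± 0.29 RPKM in control cells and 10.7 ± 0.79 RPKM with chaetocin, above *TXNRD2* in both groups. Per kilobase, *TXN* RNA was 1.75 and 1.55 times that of *TXNRD1* in untreated cells and 0.958 and 0.677 times that of *TXNRD1* in treated cells. Lengths are those of all annotated exons together, so levels of genes with many alternative transcripts are understated.

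The 9 genes together took 0.152% and 0.157% of all counts in untreated cells and 0.256% and 0.341% in treated cells. *TXNRD1* held 30.2% and 33.0% of these counts in control cells and 50.2% and 63.2% with chaetocin. Without *TXNRD1*, the other 8 genes took 0.106% and 0.105% in control cells and 0.127% and 0.125% with chaetocin. Shares of all counts refer to raw totals and leave out the TMM factors that enter CPM. Those factors were 0.942 and 0.948 for untreated libraries, against 1.03 and 1.09 for treated ones. On the CPM scale the other 8 genes therefore rose less than their shares.

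NRF2, the transcription factor of the oxidative stress response, binds the antioxidant response element, and its core, TGACNNNGC, was searched on both strands in RefSeq promoter windows of 300 bases on GRCh38.p14, from 250 bases before to 50 bases after each start. The motif was chosen after the expression results were known. Of 35116 windows of all genes, 13.3% held a match. Both annotated starts of *TXNRD1* had matches in their windows, which are shown here, since *TXNRD1* carries the called change. The capitals mark the match, read on the strand that carries it.
TXNRD1, first start, chr12:104215670-104215698, plus strand, middle at -95: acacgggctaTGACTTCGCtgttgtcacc
TXNRD1, first start, chr12:104215761-104215789, minus strand, middle at -4: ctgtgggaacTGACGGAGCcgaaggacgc
TXNRD1, second start, chr12:104286920-104286948, minus strand, middle at -98: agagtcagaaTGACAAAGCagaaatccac
The windows of *TXN*, *TXNRD2*, *TXNRD3*, *SRXN1*, *PRDX3* and *PRDX5* did not contain these letters. A match is a description of the sequence and not a measured binding site, and sequence outside the windows was not searched. The table used gave no window for *TXN2* and *PRDX1*.

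Among 9476 other tested genes with a mean of at least 10 CPM, the 3 whose levels over the 4 samples were nearest to those of *TXNRD1*, each taken relative to its own control mean, were *LCP1*, *TP53INP1* and *BRI3BP*. Their Euclidean distances were 0.26, 0.28 and 0.37 on the log2 scale. *LCP1*, which encodes an actin-bundling protein best known from leukocytes, was at 11.0 and 13.9 CPM in control cells and at 30.9 and 40.4 CPM with chaetocin. *TP53INP1*, a p53-induced gene, was at 34.6 and 33.7 CPM in control cells and at 70.3 and 128 CPM with chaetocin. *BRI3BP* was at 47.2 and 58.3 CPM in control cells and at 122 and 158 CPM with chaetocin. With 4 samples, likeness in level over so many genes is a description.

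Beyond the 9 genes, a list of 42 genes of the wider thioredoxin network was read from the same test, and 41 passed the filter on low counts. It held other peroxiredoxins, glutaredoxins, thioredoxin-like proteins, enzymes that thioredoxin reduces, arrestin-domain and Mondo genes, and sestrins. Of the 41, 1 was called higher and 0 lower, next to 1.11% and 0.743% of all tested genes. At an unadjusted p under 0.05, 2 of the 41 were higher and 8 lower, beside 10.9% and 9.43% of all tested genes. With DESeq2's Wald test 1 was called higher and 1 lower, beside 2.72% and 2.81% of all tested genes. Leaving out chaetocin replicate 1 gave 6 higher and 7 lower, while 7.55% and 9.48% of all tested genes were called. Leaving out chaetocin replicate 2 gave 3 and 2, while 4.23% and 5.59% of all tested genes were called. Both chaetocin samples were above both controls in 10 of the 41 genes and below them in 13, beside 26.8% and 26% of all tested genes, and the groups overlapped in 18. Log2 fold changes over the 41 genes had a median of 0.03 and ranged from -0.61 to 1.02.

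The called gene was *RRM2*, the small subunit of ribonucleotide reductase, an enzyme that receives electrons from thioredoxin to make deoxyribonucleotides. It was at 322 and 323 CPM in the control samples and at 678 and 628 CPM with chaetocin, and both groups were tight. The log2 fold change of *RRM2* was 1.02 (standard error 0.16, adjusted p = 0.0311), and the adjusted p was 0.0993 without control replicate 1 and 0.145 without control replicate 2. The alternative small subunit *RRM2B*, a p53 target, was at 69.9 and 70.4 CPM in control cells and at 90.1 and 97.8 CPM with chaetocin (log2 fold change 0.42, adjusted p = 0.147). For *MSRB1*, a methionine sulfoxide reductase and selenoprotein, the log2 fold change was 0.30 (adjusted p = 0.303). *ARRDC2*, an arrestin-domain gene, was at 14.7 and 12.8 CPM in control cells and at 21.1 and 15.8 CPM with chaetocin (log2 fold change 0.43, adjusted p = 0.292). The lowest p-values below 0 belonged to *TMX3*, *GLRX* and *MAP3K5*. *TMX3*, a thioredoxin-like protein of the endoplasmic reticulum membrane, was at 270 and 287 CPM in control cells and at 199 and 173 CPM with chaetocin (log2 fold change -0.58, adjusted p = 0.0939). *GLRX*, the cytosolic glutaredoxin, was at 212 and 193 CPM in control cells and at 149 and 128 CPM with chaetocin (log2 fold change -0.55, adjusted p = 0.104). *MAP3K5*, the kinase ASK1 that thioredoxin holds inactive, stood at 21.1 and 23.8 CPM in control cells and at 15.8 and 14.8 CPM with chaetocin (log2 fold change -0.56, adjusted p = 0.129).

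By family, counts of genes without overlap are descriptions of a few genes each, where 26.8% of all tested genes had both chaetocin samples above both controls and 26% had both below. None of the 3 other peroxiredoxins passed the test, their log2 fold changes ran from -0.38 to 0.11, and in 2 of them both treated samples were below both controls. The 4 glutaredoxins ran from -0.55 to 0.42 and the 14 thioredoxin-like and transmembrane proteins tested from -0.61 to 0.52, again without a call. In ribonucleotide reductase all 3 subunit genes had both chaetocin samples above both controls, with 1 called (*RRM2*) and log2 fold changes from 0.10 to 1.02. The lowest was that of *RRM1*, at 241 and 272 CPM in control cells and at 277 and 273 CPM with chaetocin. The 4 methionine sulfoxide reductases ran from -0.05 to 0.30, and in 3 of them both treated samples exceeded both controls, with 0 called. In both *MAP3K5* and *APEX1*, and in 2 of the 4 genes of the group of sestrins and *NNT*, both treated samples were below both controls, again with 0 called.

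**Figure D4:**
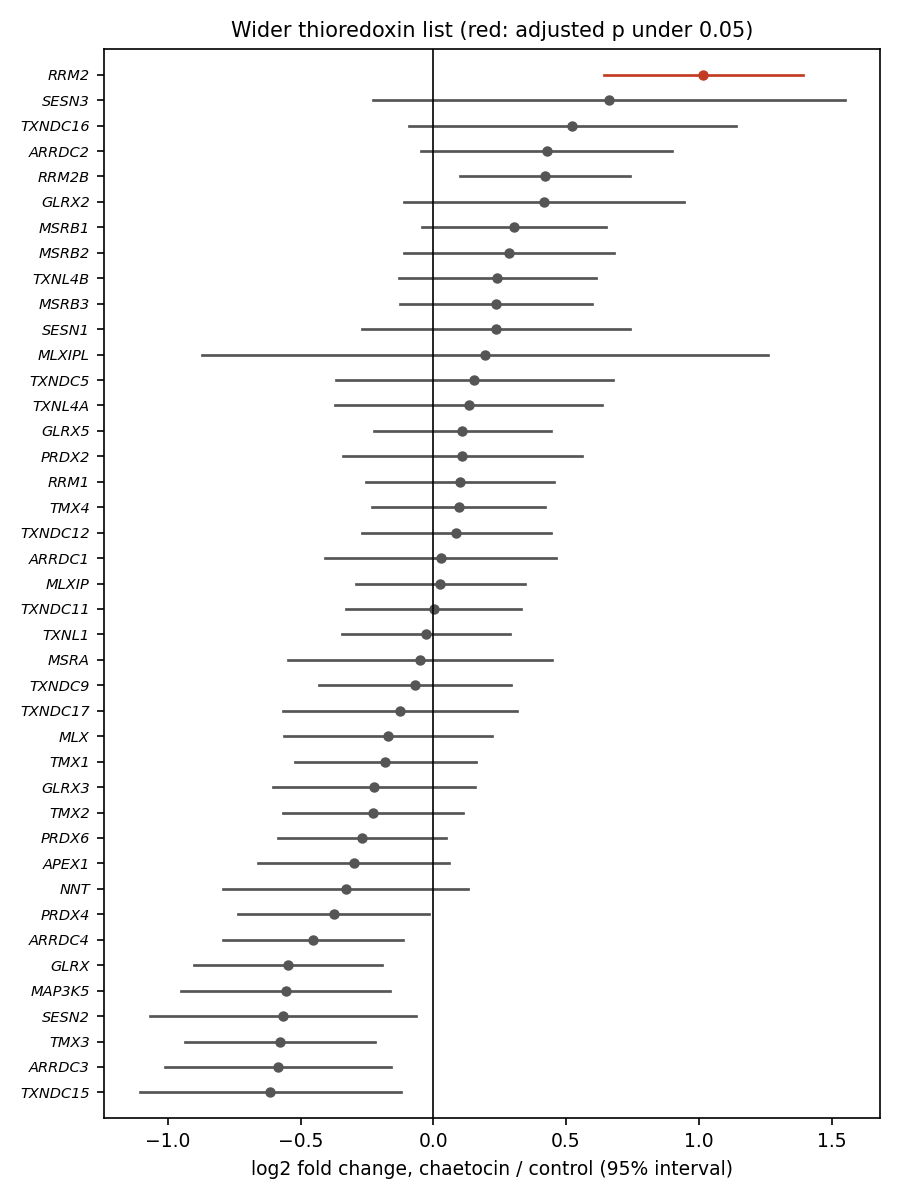
Log2 fold change of the 41 tested genes of the wider list with 95% intervals that are not adjusted for the number of genes, sorted by value. *RRM2*, in red, is the 1 called gene, at 1.02, and the lowest value is -0.61.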

How the data were processed

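RNA was sequenced from 4 samples as single-end reads of 50 bases after polyA selection. For each sample the authors deposited a table of whole-number gene counts that were not normalized. The submitters' processing notes name cutadapt, TopHat2, TopHat, SAMtools and GRCh37, and the counting tool and its use of strand are not given in the sources used here. Symbols and positions came from GENCODE v29 on GRCh38, which held 52338 of the 57905 identifiers. Groups were taken from the sample titles.

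Counts were filtered with filterByExpr (minimum count 10), scaled by TMM and tested across 16416 genes with the robust quasi-likelihood test of edgeR 4.0.16 in R 4.3.3, with no block and all 4 samples. The standard error is the absolute log2 fold change over the square root of F, and intervals come from the total degrees of freedom. The biological coefficient of variation was 16.8%. RPKM is CPM per kilobase of all annotated exons. Ratios of pairs were tested by exact permutation (SciPy 1.17.1).

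The 10 genes, the wider list and the markers were chosen with earlier results of these data known. Named genes were all members found, called genes of the wider list with the 3 smallest p-values above and below 0 among the rest, and the 3 profiles nearest to *TXNRD1* and to *TXNIP*, the latter not found. Pseudogenes named after a member held at most 0.195% of its counts, under the 1% set for naming them. Alternatives were RLE size factors, other filters, a replicate block, DESeq2 1.42.0 on the filtered genes, thinning, adding pseudogene reads and leaving out each sample.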

Additional observations from a re-analysis of the deposited data

How the results depend on the processing

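*TXNRD1* was called higher in all 11 alternatives, with log2 fold changes from 1.27 to 1.94, and none of the 9 genes was called lower in any of them. *TXN* and *SRXN1* passed the threshold without a filter on low counts (log2 fold changes 0.56 and 1.33), with the replicate block (0.58 and 1.35) and with DESeq2 (0.58 and 1.34), which each gave 3 called members in place of 1 and also called more of all genes. Over the analyses that left out 1 sample, *TXN* ranged from 0.49 to 0.66 and *SRXN1* from 1.26 to 1.42, both being called when either chaetocin sample was left out, and the number of members called ranged from 1 to 3. Values changed sign over those analyses for *TXNRD2* (-0.24 to 0.15), *TXNRD3* (-0.087 without control replicate 2, -0.01 without chaetocin replicate 2, up to 0.13) and *PRDX5* (-0.19 to 0.44). The differences of the 3 pair ratios kept their direction in every alternative. Size factors and filters on genes leave a ratio inside a sample unchanged. Leaving out 1 sample cannot reverse groups that do not overlap, so in these alternatives the direction was fixed in advance.

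Among all genes, the numbers called higher and lower were 787 and 759 without a filter (2.48% and 2.39% of the 31692 genes then tested), 114 and 80 where each sample needed at least 10 counts (0.787% and 0.552% of 14486), 1036 and 1053 under the replicate block (6.31% and 6.41% of 16416), 114 and 71 after thinning to the smallest library (0.73% and 0.455% of 15615), and 447 and 461 with DESeq2 (2.72% and 2.81% of 16416), against 182 and 122 (1.11% and 0.743%). Leaving out 1 sample gave 215 to 1332 higher and 97 to 1673 lower, with the highest counts without chaetocin replicate 1 and 712 and 940 without chaetocin replicate 2. In the wider list, leaving out 1 sample gave 0 to 6 called higher and 0 to 7 lower, and 5 were lower without a filter, 6 with the replicate block and 1 with DESeq2. The cause was not tested. Where 1 sample was left out, the lone sample of its group was assumed to vary like the other group. The labels do not say whether same-numbered samples were handled together. Deviations of same-numbered samples correlated across genes with r = 0.123, which does not settle this.

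Among the 9 genes, depth limits *TXNRD3* and *SRXN1* most, with 77 to 131 and 44 to 163 counts.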

Other observations

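*ARRDC3* and *ARRDC4*, members of the alpha-arrestin family to which *TXNIP* also belongs, were both lower with chaetocin at an unadjusted p under 0.05 and did not pass after adjustment. These genes and those that follow were chosen after their values were seen. *ARRDC3* was at 275 and 199 CPM in the control samples and at 153 and 163 CPM with chaetocin (log2 fold change -0.58, adjusted p = 0.134, edgeR). *ARRDC4* was at 60.1 and 59.8 CPM in control cells and at 46.7 and 41.0 CPM with chaetocin (log2 fold change -0.45, adjusted p = 0.142). The other listed genes of that family did not show this, with log2 fold changes of 0.43 for *ARRDC2* and 0.03 for *ARRDC1*.

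*SESN2*, a sestrin that stress is known to induce, was at 128 and 107 CPM in the control samples and at 97.0 and 62.1 CPM with chaetocin (log2 fold change -0.57, adjusted p = 0.200). The other sestrins had log2 fold changes above 0, with overlapping groups, of 0.66 for *SESN3* (adjusted p = 0.378) and 0.24 for *SESN1* (adjusted p = 0.595). *PRDX4*, the peroxiredoxin of the endoplasmic reticulum, was at 272 and 231 CPM in control cells and at 199 and 189 CPM with chaetocin (log2 fold change -0.38, adjusted p = 0.230). In *ARRDC3*, *ARRDC4*, *SESN2* and *PRDX4* both chaetocin samples were below both control samples, as in 26% of all tested genes.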
